A study of Mus musculus with 16 samples.

Results

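The genes described here build, store and release fat: 40 genes of fatty acid synthesis, triglyceride assembly, lipid droplets, lipolysis and lipid uptake. They were taken from a list of symbols and matched to every probe that the platform annotation names for them, out of 16593 genes named on the array. For 37 of the 40 genes a named probe was found, 47 probes in all, and Acacb, Pnpla3 and Acsl1 had none. The genes were grouped by role into 12 of fatty acid synthesis, 8 of esterification, 5 droplet proteins, 7 of lipolysis and 8 of uptake.

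Fat cells make fatty acids from citrate-derived acetyl-CoA, import others that lipoprotein lipase frees from blood lipoproteins, and join them to glycerol phosphate in a chain of acylation steps that ends in triglyceride. The triglyceride lies in droplets coated by perilipins, which hold back the lipases in the fed state and release them when catecholamines act on the cell. In bone, fat cells of the marrow use the same genes among blood-forming cells, bone cells and any adherent muscle.

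RNA of femur and white adipose tissue was measured on 16 Illumina bead arrays from male C3HeB/FeJ mice aged 17 weeks. One genotype was wild type, and the other was line AEA001, an ENU-derived line that its submitters describe as an osteoporosis model and label as an Ednra mutant, after the gene of a receptor for endothelin. There were 4 arrays for each tissue and genotype, and the shared strain, sex and age leave the genotype as the labelled difference within a tissue. The labels do not state the zygosity of the mutants or the fat depot. Values are the authors' normalized intensities on a linear scale, and differences are log2 differences of these intensities after raising values under 16 to 16, given ± SE from limma.

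An array of white adipose tissue stood apart by its markers. The AEA001 white adipose array of replicate 2 carried transcripts typical of femur: its granulocyte markers averaged 10.57 on the log2 scale, against 6.78 to 7.92 on the other 7 white adipose arrays, and its skeletal muscle markers averaged 9.77, against 5.53 to 6.90. The labels gave 7 animal identifiers for 8 mice, wild type replicate 3 and AEA001 replicate 4 sharing 1. Femur marker sums were high for granulocytes (161440 to 210640, all 10 genes above 16 in both genotypes) and for skeletal muscle (138910 to 173020, all 10 genes above 16). Adipocyte markers were present in both tissues, with a summed intensity of 86855 to 94774 in white adipose tissue and 4569 to 8324 in femur, where Retn, the gene of resistin, stayed under 16 on all 8 arrays and Adipoq, the gene of adiponectin, ran from 1551 to 2679. In such bulk tissue, fewer cells of a type and less RNA per cell cannot be told apart.

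White adipose tissue carried far more transcript of most of these genes than femur. In wild-type mice 33 of the 37 measured genes were higher in white adipose tissue and 2 were lower at an adjusted p of 0.05 (limma), where 73.2% of all 10847 genes tested were called, 37.6% higher and 35.6% lower. In AEA001 mice 35 were higher and 1, Lpin2 (-1.25 ± 0.18), was lower, against 72.6% of all genes called, 38.7% higher and 33.9% lower. The median log2 difference of the 37 genes was 3.02 in wild type and 3.02 in AEA001, beside medians of 0.04 and 0.07 over all genes. By role, the wild-type medians were 4.23 for droplet proteins, 3.29 for lipolysis, 3.19 for esterification, 3.02 for uptake and 2.20 for fatty acid synthesis. The adipocyte and skeletal muscle markers moved with the same contrast, by a median of 4.24 and -8.85, and their part in these differences was not tested.

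Droplet proteins had the largest median gap of the 5 role groups. Cidec, which drives the fusion of droplets into a single large one, read 24084, 22824, 23924 and 23924 on the wild-type white adipose arrays and 130.1, 235, 229 and 283 on the wild-type femur arrays. No femur array came near the lowest white adipose array, and the ratio was 112-fold (log2 difference 6.81 ± 0.19, adjusted p = 6.52e-14). Plin1, the perilipin that guards the droplet surface of fat cells, averaged 1899 ± 208 (SD, n = 4) in white adipose tissue and lay between 12.8 and 35.6 in femur, a log2 difference of 6.39 ± 0.19. Bscl2, the gene of seipin, which shapes new droplets at the endoplasmic reticulum, differed least in the group, with 13093 ± 199 (SD, n = 4) against 3948 ± 359 (SD, n = 4) and a ratio of 3.33. Plin2, the perilipin found in most cell types, differed by 3.16 ± 0.20 and Plin4, which coats nascent droplets, by 4.23 ± 0.14.

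Lipolysis genes were higher in white adipose tissue in all 6 measured cases. Lipe, the gene of hormone-sensitive lipase, read 2247, 2001, 2309 and 2301 in wild-type white adipose tissue and 42.4, 33.8, 41.2 and 52.0 in wild-type femur, a ratio of 52.8. Aqp7, the channel through which glycerol leaves the fat cell, differed by 4.98 ± 0.14. Abhd5, the co-activator of adipose triglyceride lipase, differed least, by 1.36 ± 0.08, and Pnpla2, the gene of that lipase, by 2.95 ± 0.09. G0s2, an inhibitor of the lipase, was higher by 3.55 ± 0.19. Mgll, which removes the last fatty acid, was higher by 3.02 ± 0.08, and its other probes gave 4.26 and 4.15.

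In esterification, Dgat2 and Agpat2 had the largest differences and Lpin2 ran the other way. Dgat2, a diacylglycerol acyltransferase that completes triglyceride, averaged 23387 ± 914 (SD, n = 4) in white adipose tissue and 901 ± 71.7 (SD, n = 4) in femur. Agpat2, the acyltransferase that makes phosphatidic acid in fat cells, differed by 4.04 ± 0.17. Lpin2, a phosphatidic acid phosphatase of the lipin family, read 49.4, 56.5, 79.2 and 68.4 in wild-type white adipose tissue and 383, 428, 249.6 and 301 in wild-type femur, a log2 difference of -2.42 ± 0.18 (adjusted p = 7.65e-09). All 4 femur arrays lay above all 4 white adipose arrays for this gene. Lpin1, the lipin of fat and muscle, ran opposite, with 2275 ± 359 (SD, n = 4) against 284 ± 36.8 (SD, n = 4). Agpat3 differed by -0.09 ± 0.26 in wild type, so its direction was not resolved. In AEA001 it differed by 0.62 ± 0.26 (adjusted p = 0.0393), a call lost without white adipose replicate 1 or 3 or femur replicate 2 or 4 of AEA001 (adjusted p up to 0.152, with a difference of 0.38 without white adipose replicate 3). It was also lost with cyclic loess (0.46, adjusted p = 0.116), a floor of 32 (adjusted p = 0.0588), no filter on dim probes (0.0918) and without the animals that share an identifier (0.104). Gpd1, which makes glycerol phosphate, Gpam, which adds the first acyl chain, and Dgat1, a second diacylglycerol acyltransferase, were each higher in white adipose tissue, by 3.80, 3.34 and 3.04.

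Fatty acid synthesis had the smallest median gap of the 5 role groups. Thrsp, a lipogenic nuclear protein, differed by 5.52 ± 0.53 and Fasn, fatty acid synthase, by 3.17 ± 0.19 from a femur level of 20.9 to 30.6. The desaturases that act on polyunsaturated chains did not follow in wild type: Fads1 read 3607 to 5406 in wild-type white adipose tissue and 3757 to 4167 in wild-type femur, and the ranges overlapped. Fads2 was lower in white adipose tissue by 0.64 ± 0.25 on the log2 scale (adjusted p = 0.0299), with 30.9, 61.7, 65.3 and 79.2 against 87.9, 84.5, 100.1 and 78.8. That call was lost in 5 alternatives, among them the fits without wild-type femur replicate 1 or 3 and without wild-type white adipose replicate 1, where the difference was -0.36 (adjusted p = 0.106). In AEA001, Fads1 was higher in white adipose tissue without overlap, at 4917 to 6474 against 3387 to 4039 (0.55 ± 0.12, adjusted p = 0.000697), and Fads2 differed by -0.24 ± 0.25 (adjusted p = 0.399). Scd1, the main desaturase of fat, was higher by 2.64 ± 0.19 and Scd2 by 2.51 ± 0.31. Acaca (2.58), Elovl6 (2.20), Me1 (1.79), Elovl5 (1.52) and Acly (1.49), enzymes of chain building, elongation and NADPH or acetyl-CoA supply, were also higher.

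Uptake genes were all higher in white adipose tissue. Angptl4, an inhibitor of lipoprotein lipase, differed by 3.67 ± 0.10 and Slc27a1, a fatty acid transporter, by 3.20 ± 0.19. Lpl itself was bright in both tissues, with 29577 ± 979 (SD, n = 4) against 8081 ± 632 (SD, n = 4) and a ratio of 3.67. Gpihbp1, which carries the lipase to the capillary wall, differed by 3.02 ± 0.14 and Fabp5, a fatty acid binding protein, by 3.03 ± 0.18. The probes of Fabp4, the fat cell fatty acid binding protein, and Cd36, a fatty acid translocase, were dim even in fat, with 35.0 to 57.2 and 51.1 to 71.0 in wild-type white adipose tissue. On the femur arrays neither probe rose above the floor on 4 or more arrays, so white adipose tissue was at least 2.68-fold higher for Fabp4 and at least 3.68-fold higher for Cd36.

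**Figure D1:**
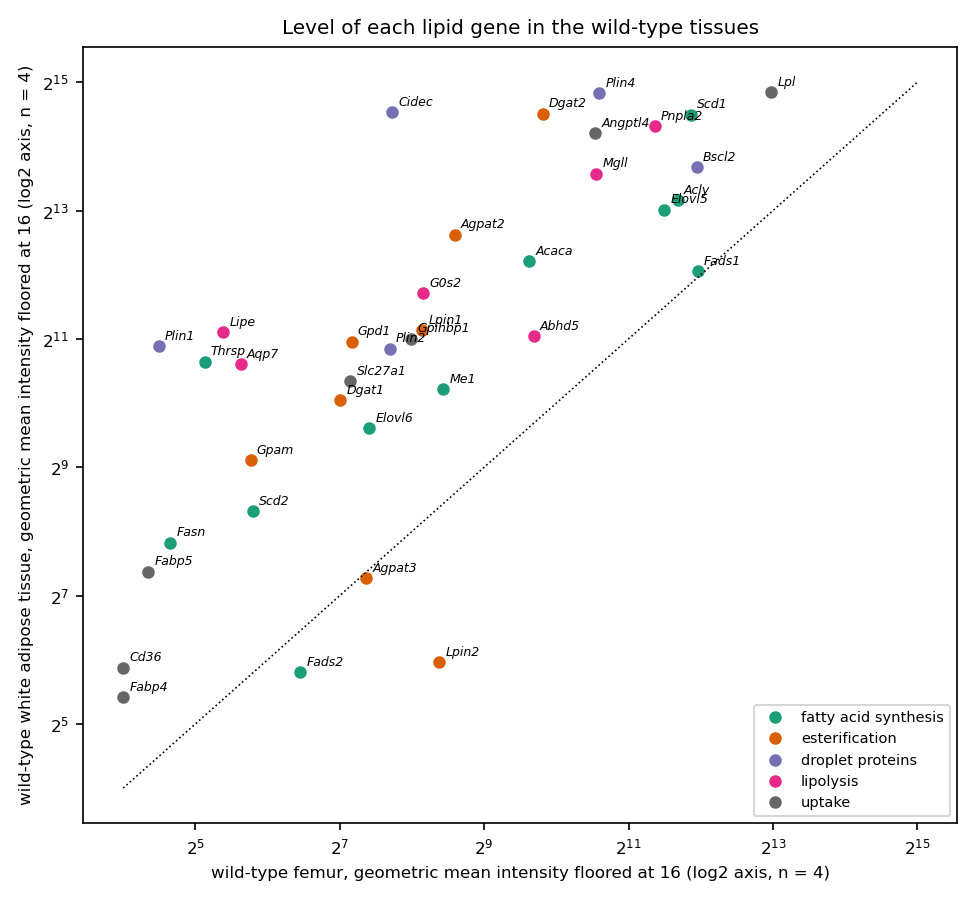
Level of each measured lipid gene in wild-type femur (horizontal) and wild-type white adipose tissue (vertical), as geometric mean intensity of 4 arrays per tissue on log2 axes, with the colour giving the role and the dotted line equal levels. Most genes lie above the line, Cidec (112-fold) farthest from it, while Lpin2 and Fads2 lie below it and Fads1 and Agpat3 close to it.

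Genotype was compared within each tissue next. In white adipose tissue 0 of 37 genes passed an adjusted p of 0.05 by limma, and 0% of the 9878 genes tested did so by their brightest probe. At an unadjusted p of 0.05, 11 of the 37 genes were higher in AEA001 and 1 was lower, where 13.3% of all genes were higher and 12.2% lower. The AEA001 arrays lay wholly above the wild-type arrays for 7 of the 37 genes and wholly below them for 2, against 8.53% and 7.37% of all genes. The median log2 difference was 0.16 over the 37 genes, 25 of them above 0, and 0.03 over all genes, 54.7% of which were above 0. By role it was 0.26 for fatty acid synthesis, 0.19 for uptake, 0.11 for lipolysis, 0.09 for esterification and 0.01 for droplet proteins. Without single arrays the median for fatty acid synthesis ranged from 0.12 to 0.37. Without AEA001 replicate 2, 9 genes were higher and 2 lower at an unadjusted p of 0.05, against 11.4% and 10.2% of all genes. Without the animals that share an identifier these counts were 8 and 0, against 12.2% and 10.2% of all genes. None of the 37 genes passed limma's adjusted test in either case.

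Dgat1 had the smallest p of the 37 genes as given by their brightest probes, and the dimmer probe of Lipe had a smaller one. Dgat1 read 926, 854, 1257 and 1279 in wild type and 1693, 1763, 1865 and 1797 in AEA001, with no overlap (log2 difference 0.74 ± 0.14, adjusted p = 0.111). Dgat2, which carries out the same acylation, was close to equal at 23387 ± 914 and 22563 ± 1325 (SD, n = 4), near the highest intensity in the data, 33738. Lpin2 gave 49.4, 56.5, 79.2 and 68.4 against 68.8, 110.2, 84.2 and 91.7, overlapping by 1 array on each side (0.49 ± 0.19, adjusted p = 0.156).

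In fatty acid synthesis, Me1 and Acaca led. Me1, malic enzyme, which supplies NADPH, read 1214, 1318, 1224 and 1040.0 in wild type and 1768, 1601, 1852 and 1478 in AEA001 (0.48 ± 0.11, adjusted p = 0.112). Its dimmer probe also separated the genotypes, by a smaller 0.25 ± 0.09. Acaca, acetyl-CoA carboxylase, read 3335, 4395, 5773 and 5911 in wild type and 7214, 7838, 5999 and 8592 in AEA001 (0.64 ± 0.20, adjusted p = 0.122). For Acaca the wild-type replicates 1 and 2 lay farthest from the mutants, and replicates 3 and 4 close beneath AEA001 replicate 3. Scd1, at 23144 ± 1651 and 25200.0 ± 646 (SD, n = 4), differed by 0.13 ± 0.08, and Fads1 by 0.34 ± 0.15. Thrsp (0.65 ± 0.35) and Scd2 (-0.74 ± 0.38) had large differences within a wide spread, with 974, 1101, 2695 and 2294 for Thrsp in wild type alone.

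Among droplet and lipolysis genes, Plin1 read 1778, 1765, 2206 and 1845 in wild type and 2320.0, 2563, 2422 and 2579 in AEA001 (0.38 ± 0.10, adjusted p = 0.112). Bscl2 was also free of overlap, with 12857 to 13345 against 14480.1 to 16949 (0.22 ± 0.08). Plin4 and Cidec differed by -0.01 and 0.01 at levels near the top of the scale. Pnpla2 averaged 20494 ± 2756 in wild type and 24927 ± 988 in AEA001 (SD, n = 4), with overlapping arrays (0.29 ± 0.11). Lipe differed by 0.16 ± 0.09 on its bright probe, whereas its dim probe read 92.4, 74.0, 90.9 and 95.8 in wild type and 129, 158, 181 and 148 in AEA001 (0.80 ± 0.13, adjusted p = 0.107). The probes of this gene therefore differed in size, and neither passed the adjusted test. Abhd5 did not overlap either, at 0.10 ± 0.07, and G0s2, Mgll and Aqp7 differed by 0.03, -0.02 and 0.11.

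Uptake genes differed in both directions. Slc27a1 read 1055, 1090.2, 1482 and 1670.0 in wild type and 1656, 2393, 2861 and 2828 in AEA001, with 1 mutant array just under the highest wild-type array (0.87 ± 0.22, adjusted p = 0.112). Gpihbp1 read 1704, 1851, 2526 and 2247 against 2730.2, 3045, 3069.7 and 2853 and did not overlap (0.51 ± 0.13, adjusted p = 0.112). Lpl, the enzyme that Gpihbp1 binds, differed by 0.01 ± 0.07. Angptl4 was the 1 gene lower at an unadjusted p of 0.05, with 19512, 19368, 19681 and 17157 against 15575, 16668, 15521 and 14701 (-0.28 ± 0.08, adjusted p = 0.121). Every AEA001 array lay below every wild-type array for this inhibitor, as for Elovl5, an elongase (-0.16 ± 0.08). Cd36 differed by 0.54 ± 0.21 on its dim probe, Fabp4 by 0.19 ± 0.17 and Fabp5 by -0.15 ± 0.15.

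**Figure D2:**
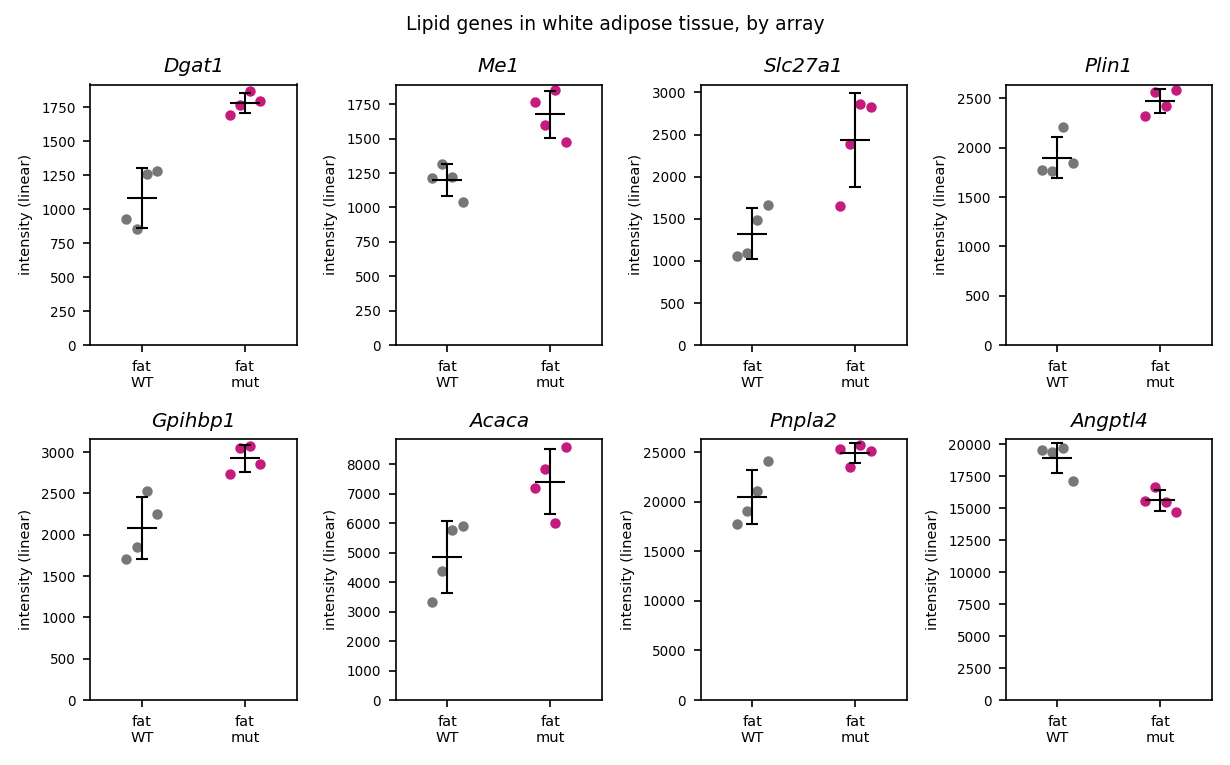
Linear intensity of 8 lipid genes on each white adipose array, 4 wild type (grey) and 4 AEA001 (magenta), with a bar at the mean and whiskers of 1 SD. Dgat1, Me1, Plin1, Gpihbp1 and Acaca lie higher in AEA001 without overlap and Angptl4 lower, while Slc27a1 and Pnpla2 overlap.

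The count of calls in white adipose tissue depended on the fit. In 1 fit of all 16 arrays, whose spread is shared with femur, Acaca, Dgat1, Gpihbp1, Me1 and Slc27a1 passed an adjusted p of 0.05, 5 of 37 genes against 5.96% of all genes. Leaving out 1 white adipose array at a time from that fit gave 0 to 7 calls, and the share of all genes called moved with them. No gene was called without wild type replicate 1 (0.463% of all genes), and Dgat1 alone without wild type replicate 2 (0.444%) or AEA001 replicate 3 (0.981%) or 4 (0.593%). There were 2 calls without AEA001 replicate 2 (3.18%), 3 without AEA001 replicate 1 (5.4%), 5 without wild type replicate 3 (12.5%) and 7 without wild type replicate 4 (14.1%). In the fit of white adipose tissue alone, none of the 37 genes passed without any 1 of its 8 arrays. Markers moved with the genotype as well. Macrophage markers averaged 10.30 to 10.99 on the log2 scale in wild-type white adipose tissue and 9.94 to 10.26 in AEA001 without overlap (summed intensity 19621 to 38473 against 13786 to 18380, 8 of 8 measured genes above 16 in both), with replicate 1 of wild type the highest. Red-cell precursor markers averaged 8.56 to 9.22 in wild type and 9.35 to 10.56 in AEA001, and endothelial markers 9.27 to 9.37 and 9.15 to 9.25, both also without overlap. Adipocyte markers averaged 12.68 to 13.02 and 12.95 to 13.04. The part of these markers in the lipid gene differences was not tested.

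In femur 0 of the 35 genes kept passed the adjusted test, and 0% of 9789 genes did. Fabp4 and Cd36 were not kept, their probes lying at the floor. At an unadjusted p of 0.05, 3 genes were higher in AEA001 and 2 lower, where 6.53% and 9.17% of all genes were. Without AEA001 replicate 3 the counts were 8 higher and 3 lower, against 5.88% and 8.47% of all genes. Without AEA001 replicate 4 they were 1 and 2, against 6.62% and 8.63%. The AEA001 arrays lay wholly above wild type for 2 of the 35 genes and wholly below for 1, against 4.23% and 5.5% of all genes. The median was 0.12 over the 35 genes, 23 of them above 0, and -0.03 over all genes, 44% of which were above 0. The 5 droplet protein genes all had differences above 0, from 0.04 for Plin4 to 0.32 for Cidec with a median of 0.22, and none reached an unadjusted p of 0.05. Without wild-type femur replicate 1 that median was 0.098 and the Cidec difference 0.084.

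Lpin2 and Agpat2, which act in successive steps of triglyceride assembly, had the smallest p of the femur genes, in opposite directions. Lpin2 read 383, 428, 249.6 and 301 in wild-type femur and 188, 223, 201 and 221 in AEA001 femur, with no overlap (-0.68 ± 0.17, adjusted p = 0.171). Agpat2 read 458, 247, 449.6 and 434 in wild type and 698, 586, 529.7 and 709 in AEA001, also without overlap (0.70 ± 0.21, adjusted p = 0.188). Lpin2 passed the adjusted test without wild-type femur replicate 3 (-0.82, adjusted p = 0.0229, 3.86% of all genes called) and without the animals that share an identifier (-0.85, adjusted p = 0.0417, 2.36% called). The value of 247 for Agpat2 in wild type replicate 2 stood well below the other wild-type arrays.

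Of the other femur genes, Acly, ATP citrate lyase, read 3291, 3069.7, 3258 and 3524 in wild type and 3847, 3957, 3547 and 4102 in AEA001 (0.23 ± 0.09, adjusted p = 0.243). The groups were just separated. Fasn lay near the floor, at 20.9, 22.1, 30.6 and 28.1 in wild type and 13.8, 19.9, 9.13 and 21.0 in AEA001, so its difference of -0.47 ± 0.16 depended on the floor. Aqp7 gave 0.47 ± 0.17 on its brightest probe and 0.37 and 0.59 on the others kept. Thrsp had the largest difference of the 35 genes, 0.98 ± 0.61, within a wide spread (log2 SD 1.43 in AEA001 and 0.34 in wild type). Dgat2 differed by 0.30 ± 0.15, Plin2 by 0.23 ± 0.17, Gpihbp1 by 0.26 ± 0.14, Slc27a1 by 0.17 ± 0.14, Scd1 by 0.28 ± 0.24, Pnpla2 by 0.12 ± 0.09, Abhd5 by -0.14 ± 0.10, Bscl2 by 0.10 ± 0.09 and Lpl by -0.06 ± 0.10. The 3 Mgll probes gave 0.02, -0.19 and 0.33, so the sign for this gene depended on the probe. Granulocyte markers averaged 13.65 to 13.96 in wild-type femur and 14 to 14.15 in AEA001, and macrophage markers 9.37 to 10.10 and 10.16 to 10.33, both without overlap. Red-cell precursor markers lay the other way, at 13.25 to 13.37 and 13.04 to 13.23, also without overlap. Adipocyte markers averaged 8.79 to 9.38 and 8.94 to 9.57. Brown adipocyte markers averaged 8.10 to 9.02 and 7.90 to 9.70, with AEA001 replicate 3 the lowest. Of the 5 brown adipocyte markers measured, 2 had differences above 0, among them Ucp1 (1.64 ± 0.80), and 3 had differences below 0. Whether these markers bear on the lipid gene values was not tested.

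**Figure D3:**
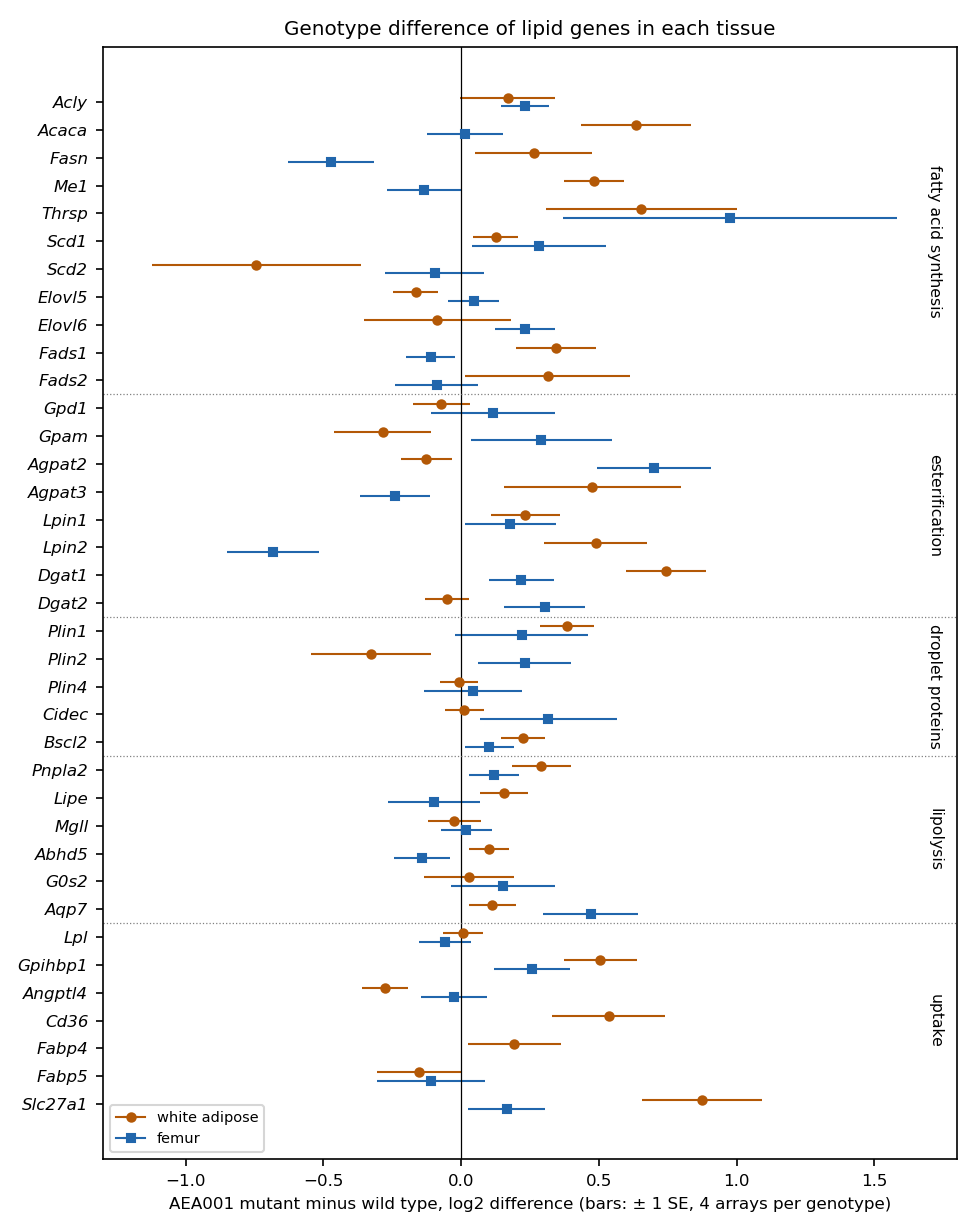
Log2 difference between AEA001 and wild type for each measured lipid gene in white adipose tissue (brown circles, 37 genes) and femur (blue squares, 35 genes), with bars of 1 SE from limma and genes grouped by role. For Lpin2 the femur value is -0.68 and the white adipose value 0.49, and for Agpat2 they are 0.70 and -0.13.

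Whether the genotype difference depended on the tissue was tested directly, as the white adipose difference minus the femur difference in 1 fit of all 16 arrays. It passed an adjusted p of 0.05 for 3 of 37 genes, 2 with a positive and 1 with a negative value, a share near the 6.79% of all 10847 genes tested (3.56% positive, 3.23% negative). At an unadjusted p of 0.05 there were 8 positive and 1 negative, against 15% and 12% of all genes. The 8 include Cd36, whose femur values lay at the floor. For Lpin2 the difference was 1.17 ± 0.26 (adjusted p = 0.0267), made up of 0.49 in white adipose tissue and -0.68 in femur. For Me1 it was 0.62 ± 0.17 (adjusted p = 0.0474), with 313, 419, 314 and 344 in wild-type femur against 334, 369, 281 and 282 in AEA001 femur. The dimmer Me1 probe gave 0.03 ± 0.18, so the result rested on 1 probe. For Agpat2 it was -0.83 ± 0.24 (adjusted p = 0.0485), the white adipose arrays reading 6265, 5791, 6886 and 6389 in wild type and 6008, 6319.6, 5517 and 5364 in AEA001. The dim Lipe probe also passed (0.92 ± 0.18, adjusted p = 0.0223) and the bright Lipe probe did not (0.25 ± 0.19). In femur the dim probe lay near the log2 floor of 4, at means of 4.12 in wild type and 4.00 in AEA001. A femur difference beneath the floor cannot be seen, so this call rests mostly on the white adipose difference of 0.80.

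These calls were close to the threshold. With the animal as a random block, Lpin2 passed (adjusted p = 0.0327) and Me1 (0.0592) and Agpat2 (0.0612) did not, with 4.66% of all genes called. Without AEA001 white adipose replicate 2, Lpin2 passed (1.06, adjusted p = 0.0470) and the others did not, with 2.76% of all genes called. None of the 37 genes passed without replicate 1 or 2 of wild-type white adipose tissue, replicate 4 of AEA001 white adipose tissue or replicate 1 or 2 of wild-type femur. In these 5 fits calls over all genes fell as well, to 1.14%, 0.656%, 0.491%, 0.629% and 0.546% in the same order. As each of the 16 arrays was left out in turn, Lpin2 passed in 11 fits, with a difference of 1.05 to 1.31, Me1 in 2, those without replicate 3 of wild-type white adipose tissue (12% of all genes called) or of wild-type femur (12.6%), and Agpat2 in the latter alone. Marker lists moved with this contrast. Macrophage markers had 8 of 8 values below 0, 5 of them called, with a median of -1.01. Red-cell precursor markers had 4 of 4 above 0, 2 of them called, with a median of 0.76. Skeletal muscle and granulocyte markers had 10 of 10 above 0 each, none called, with medians of 1.13 and 1.06. Among white adipose arrays, AEA001 replicate 2 was far the highest for both lists, at 9.77 and 10.57 on the log2 scale. The other white adipose arrays averaged 5.53 to 6.90 and 6.78 to 7.92. In wild-type white adipose tissue only 5 and 3 of the 10 genes averaged above 16. The part of these markers in the lipid gene results was not tested. The members next in line by limma were Dgat1 at 0.53 ± 0.19 (adjusted p = 0.092), Fads1 at 0.46 ± 0.17 (adjusted p = 0.1) and Fasn at 0.74 ± 0.27 (adjusted p = 0.101). After them came Slc27a1 at 0.71 ± 0.27 (adjusted p = 0.105), Acaca at 0.62 ± 0.25 (adjusted p = 0.125) and Cd36 at 0.54 ± 0.22 (adjusted p = 0.134). Fasn lay near the floor in femur. Cd36 lay at the floor in both femur groups, so its value repeats the white adipose difference and cannot compare the tissues.

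**Figure D4:**
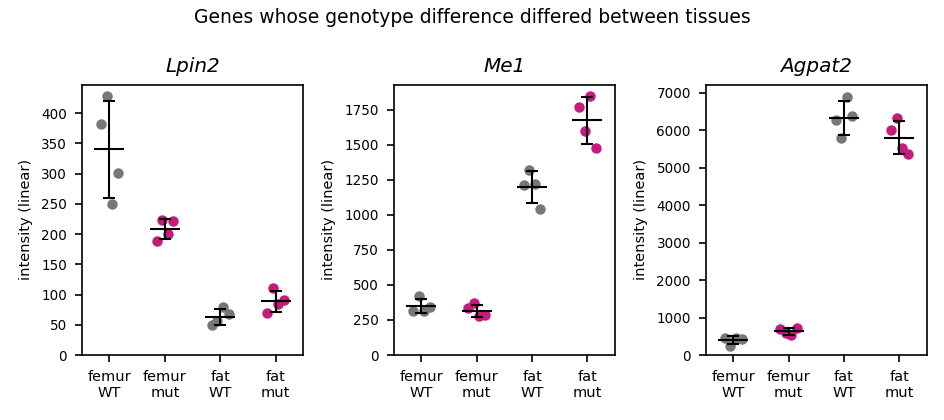
Linear intensity of Lpin2, Me1 and Agpat2 on each of the 16 arrays by tissue and genotype, 4 wild type (grey) and 4 AEA001 (magenta) per tissue, with a bar at the mean and whiskers of 1 SD. AEA001 lies below wild type for Lpin2 in femur (208 against 340.3) and above it for Me1 in fat (1675 against 1199), while Agpat2 is far higher in white adipose tissue than in femur in both genotypes.

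The promoters of these 3 genes are shown because they passed the test of the difference between tissues in the main fit. The sequences are from RefSeq (GRCm38.p6), 250 bases before to 50 after the annotated start, printed 5′ to 3′ on the gene's own strand, and where a gene had several starts the most upstream was taken. Me1 lies on chr9:86695865-86696164 (minus strand), Agpat2 on chr2:26604368-26604667 (minus strand) and Lpin2 on chr17:71183282-71183581 (plus strand). Capitals mark matches to any of the motifs CACGTG (the E-box of USF and ChREBP-type factors), CCAAT (the NF-Y box), AGGTCA (the nuclear receptor half-site), TATAAA and GGGCGG (the Sp1 box), searched on both strands.
Me1: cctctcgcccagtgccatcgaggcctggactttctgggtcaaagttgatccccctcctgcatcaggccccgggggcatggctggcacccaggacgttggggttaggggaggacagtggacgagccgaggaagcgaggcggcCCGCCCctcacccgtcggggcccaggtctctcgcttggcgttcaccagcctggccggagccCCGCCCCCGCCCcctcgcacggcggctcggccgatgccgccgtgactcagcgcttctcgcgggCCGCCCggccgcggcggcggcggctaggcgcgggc
Agpat2: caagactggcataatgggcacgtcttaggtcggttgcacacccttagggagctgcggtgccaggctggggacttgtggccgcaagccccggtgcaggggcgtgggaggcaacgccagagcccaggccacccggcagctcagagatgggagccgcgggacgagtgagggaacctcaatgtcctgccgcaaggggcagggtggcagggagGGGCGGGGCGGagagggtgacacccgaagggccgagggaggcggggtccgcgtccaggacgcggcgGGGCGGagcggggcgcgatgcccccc
Lpin2: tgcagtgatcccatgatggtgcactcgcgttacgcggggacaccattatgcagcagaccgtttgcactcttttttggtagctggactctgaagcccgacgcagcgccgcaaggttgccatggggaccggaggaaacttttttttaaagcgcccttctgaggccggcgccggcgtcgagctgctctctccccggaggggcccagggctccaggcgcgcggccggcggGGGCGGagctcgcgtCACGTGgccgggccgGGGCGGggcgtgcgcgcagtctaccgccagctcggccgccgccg
The Me1 window held 4 GGGCGG matches, all on the opposite strand, and the Agpat2 window held 3 on its own strand, of which the first and the second share 1 base. The Lpin2 window held 2 GGGCGG matches and 1 CACGTG. Windows of 29 of the lipid genes were found, 42 in all, among the 32851 promoter windows searched. Those of a chromosome that holds none of the 40 genes were left out. The Sp1 box was in 20 of the 42 and in 35.7% of all windows, and the E-box in 6 of the 42 and in 7.2% of all. The NF-Y box was in 16 of the 42 (37.4% of all), the nuclear receptor half-site in 11 (16.3%) and the TATA motif in 1 (13.6%). A match describes the letters of the window and says nothing of binding.

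Further genes of the same pathways were read from lists of regulators, other enzymes, other droplet proteins, control of lipolysis and other uptake genes. No gene of these 5 lists passed limma's adjusted test in femur or in white adipose tissue. White adipose tissue had 1 of 15 regulators higher and 3 lower at an unadjusted p of 0.05, and of 20 other enzymes 6 were higher and 1 lower, beside the 13.3% and 12.2% of all genes. Of 6 other droplet proteins 2 were higher and 1 lower there. For 10 genes of lipolysis control the counts were 3 and 1, and for 13 other uptake genes 1 and 2, beside the same shares of all genes. In femur 0 of 15 regulators were higher and 2 lower, beside 6.53% and 9.17%. Among regulators in white adipose tissue, Cebpb, a transcription factor of fat cell formation, read 5086, 4430.4, 3564 and 3330.2 in wild type and 2618, 2743, 2369.9 and 2116 in AEA001 (-0.72 ± 0.15, adjusted p = 0.112). Ppargc1b, a co-activator of lipogenic and mitochondrial genes, read 193, 143, 276 and 273 against 406, 389, 404 and 751 (1.13 ± 0.28). Both were free of overlap. Hilpda, a droplet protein that inhibits adipose triglyceride lipase, read 2222, 3119, 2638 and 1798 against 1564, 1064, 1611 and 1257 (-0.82 ± 0.20), and Hcar1, the lactate receptor that restrains lipolysis, 3353 ± 105 against 4618 ± 578 (SD, n = 4).

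In femur the regulators Usf1 (-0.43 ± 0.11) and Srebf2 (-0.43 ± 0.12) had the smallest p of their list, with adjusted p = 0.177 and 0.182. The test of the difference between tissues called 6.79% of all genes, and among 15 measured regulators it passed for 2, Ppargc1b (1.39 ± 0.33, adjusted p = 0.0306) and Usf1 (0.68 ± 0.18, adjusted p = 0.0362). It also passed for Gpat4, a glycerol phosphate acyltransferase (0.65 ± 0.17, adjusted p = 0.0374), 1 of 21 other enzymes, and for Hilpda (-0.78 ± 0.22, adjusted p = 0.0448), 1 of 7 other droplet proteins. Gpat4, which starts triglyceride assembly as Gpam does, averaged 2197 ± 138 in wild-type femur and 1877 ± 93.0 in AEA001 femur, and 2860.0 ± 554 and 3808 ± 366 in white adipose tissue (SD, n = 4). None of the 10 genes of lipolysis control and none of the 14 other uptake genes passed this test by limma, and at an unadjusted p of 0.05 there were 3 higher and 1 lower of the former and 0 higher and 2 lower of the latter, beside 15% and 12% of all genes.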

How the data were processed

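RNA of 16 samples, extracted with Trizol and column clean-up and amplified to biotin-labelled cRNA per the labels' protocols, was hybridised to Illumina bead arrays. The authors deposited intensity values on a linear scale for 25697 probes, made with GenomeStudio 2011.1 per the submitters' processing notes. How background was corrected and arrays were normalized is not given in the sources used here. Of the values, 25.3% to 25.4% per array were negative, and sorted intensities of any arrays differed by at most 0.797, so total signal carries no difference between arrays or tissues. A second table, of unnormalized signals, has 16 signal columns that match no sample label, so it was left out; background correction and renormalization from it were therefore not run.

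Intensities under 16 were set to 16 and taken to log2, which understates differences of dim probes. A probe was kept if it exceeded 16 on at least 4 arrays of a fit. Probes were named from the platform annotation, in which 23978 have 1 gene symbol, 0 several and 1719 none. A gene was given by its brightest kept probe. Femur and white adipose tissue were each fitted with limma 3.58.1 in R 4.3.3, by its lmFit and eBayes steps with two-sided tests, Benjamini-Hochberg adjustment over all probes kept and a threshold of 0.05. Tissue contrasts and the difference between tissues came from 1 fit of all 16 arrays.

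Both tissues of an animal share a replicate number and identifier in the labels, so the animal as a random block was the alternative. The correlation of their deviations from the group means ran from -0.24 to 0.03. No label says that wild-type and mutant animals of 1 number are related. The labels name separate animals, apart from the shared identifier.

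The genes, lists and alternatives were chosen with earlier results of these data known. Named in each genotype comparison were the called genes, the 2 of smallest p and the brightest of each role group, and in tissue contrasts the 2 largest and 2 smallest differences per role group. From further lists these were the called genes and the 2 of smallest p in each tissue. Other genes named with values were chosen after these were seen.

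On simulated data, with 100 probes changed at each size, the femur comparison over 14281 probes recovered 60% at 1.5-fold and 96% at 3-fold, with 9 false calls. The white adipose comparison over 14342 probes recovered 46% and 98%, with 11 false calls. The difference between tissues over 15993 probes recovered 27% and 93%, with 9 false calls. Changes were placed only in probes bright on average, and noise was drawn independently for each probe and array. Recovery for dim probes, or with deviations shared within an array, was therefore not measured. The alternatives concerned the floor, the scale, the filter on dim probes, renormalization, the variance model, array weights, the probes of a gene, blocks, the threshold, the shared identifier and each replicate. The omission of white adipose arrays from the fit of all 16 arrays was added after the data were seen. The number of arrays limits the precision. Ednra was not analysed here.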

Additional observations from a re-analysis of the deposited data

Results flagged for a closer look

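Agpat2 in wild-type femur replicate 2 lay at 7.95 on the log2 scale (intensity 247), apart from the other 3 wild-type femur arrays at 8.76 to 8.84. Without that array the Agpat2 difference in femur was 0.49. Dgat2 on the same array lay at 9.63 (intensity 794), apart from the others at 9.86 to 9.89. Both were picked out because the gap to the nearest array exceeded Dixon's limit for a group of 4, which chance exceeds in about 1 in 20 groups. The limit was applied to both genotype groups of every gene named by rule in each tissue, so chance alone would give some such gaps. In the main fit, limma's test of the difference between tissues passed for Lpin2 (1.17), Me1 (0.62), Agpat2 (-0.83) and the dimmer Lipe probe (0.92). That Lipe probe lay near the floor in femur, so its value rests mostly on white adipose tissue. As each of the 16 arrays was left out, Lpin2 passed in 11 fits, Me1 in 2 and Agpat2 in 1. The dimmer Me1 probe gave 0.03 ± 0.18. The 3 genes of 37 that passed were a share near the 6.79% of all genes.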

How the results depend on the processing

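The tissue contrasts changed least: 34 to 35 of the genes were called in wild type and 35 to 36 in AEA001 as each array was left out. At an adjusted p of 0.20, the counts called were 2 of 35 in femur, 12 of 37 in white adipose tissue and 11 of 37 for the difference between tissues, where 5.04%, 26.9% and 29.5% of all genes were called. The femur count was 1 without the animals that share an identifier and 0 to 1 without single arrays, and the white adipose count was 0 in the fit of that tissue without each of its 8 arrays. In 1 fit of all 16 arrays it was 5, and 0 to 7 in that fit without single arrays, 3 without AEA001 replicate 1. The count for the difference between tissues was 1 with a floor of 8, 0 with no filter on dim probes, where 16593 genes were tested, and 0 to 4 without single arrays. Lpin2 passed in 10 of 11 other alternatives to that test, with a difference of 0.91 to 1.43, and Me1 and Agpat2 in 6 of 11 each. With the mean of all probes of a gene, Me1 gave 0.32.

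The replicate block of the animal left 1 gene called for the difference between tissues. Same-numbered wild-type and mutant arrays correlated between -0.07 and 0.06 in femur, where 1 of 8 arrays correlated best with its own number. In white adipose tissue they correlated between -0.06 and 0.33, and 5 of 8 arrays correlated best with their own number. What animals of the same number might share was not tested. A block of that number left 0 genes called in each tissue.

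The Fasn difference in femur was 0 with a floor of 32, under which its femur values lie. Without single arrays, white adipose values ranged from -0.020 to 0.013 for Plin4 and from -0.013 to 0.028 for Lpl, the difference between tissues from -0.29 to 0.074 for Scd1, and the wild-type tissue contrast from -0.22 to 0.15 for Agpat3 and from -0.023 to 0.17 for Fads1.

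Role group medians moved as follows. In the wild-type tissue contrast, uptake was 2.37 with a floor of 32, 2.87 with cyclic loess and 2.87 without the animals that share an identifier. With the offset scale, fatty acid synthesis was 1.902, esterification 2.77, lipolysis 3.18 and uptake 1.87. Among probes above 32 on all arrays, fatty acid synthesis was 2.00, droplet proteins 3.69 and lipolysis 3.02. Esterification was 3.06 with cyclic loess, and lipolysis 3.68 with the mean of all probes. In AEA001, uptake was 2.22 with a floor of 32, 3.26 with a floor of 8, 1.93 with the offset, 3.34 among the brighter probes and 2.82 with cyclic loess. Fatty acid synthesis there was 1.70 with the offset, droplet proteins 3.39 and lipolysis 3.12 among the brighter probes, and lipolysis 3.62 with the mean of all probes. Without single arrays, fatty acid synthesis in AEA001 ranged from 1.71 to 2.13 and uptake from 2.90 to 3.12. The uptake median ranged from 0.10 to 0.33 in white adipose tissue and for the difference between tissues. For that difference, fatty acid synthesis ranged from -0.16 to 0.18 and esterification from -0.20 to 0.055, and without the animals that share an identifier they were 0.34 and 0.14. The causes were not tested.

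Dim probes set a limit: Fabp4 and Cd36 could not be compared in femur, and Fasn and Plin1 lay near the floor there. Lpl, Plin4, Scd1, Cidec, Dgat2 and Pnpla2 lay near the highest intensity in white adipose tissue. With 4 arrays per group, changes of 1.5-fold were recovered in simulation for 46% of the bright probes changed in white adipose tissue. A gene below the threshold may therefore still differ.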

Other observations

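Further genes of these pathways had the smallest p of their lists in white adipose tissue, none of them past the adjusted test by limma. Slc25a1, the carrier that exports citrate from mitochondria, differed by 0.38 ± 0.10 and Pck1, which feeds glycerol synthesis in fat, by 0.98 ± 0.31. Cidea, a droplet protein of brown and beige fat, differed by 0.49 ± 0.12 and Hcar2, a receptor that restrains lipolysis, by 0.55 ± 0.17. Vldlr, a receptor for lipoproteins, differed by -0.43 ± 0.13 and Lmf1, which matures lipoprotein lipase, by 0.28 ± 0.08. In femur the corresponding values were 0.46 ± 0.19 for Mogat2, a monoacylglycerol acyltransferase, 0.87 ± 0.66 for Cidea, -0.24 ± 0.23 for Plin5, a perilipin of oxidative tissue, -0.36 ± 0.12 for Adcy6, an adenylyl cyclase, -0.61 ± 0.21 for Npr1, the natriuretic peptide receptor, 0.34 ± 0.17 for Acsl4, which activates fatty acids, and 0.14 ± 0.08 for Lmf1. The genotype difference of Gpat4 in femur was -0.23 ± 0.09.

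Of 6 adipocyte markers measured in white adipose tissue, 3 were higher in AEA001 and 1 lower at an unadjusted p of 0.05, beside 13.3% and 12.2% of all genes, and none passed limma's adjusted test. The lower one, Lep, the gene of the fat hormone leptin, read 27335, 27335, 24258 and 20938 in wild-type white adipose tissue and 20603, 18403, 13426 and 11919.6 in AEA001, with no overlap (-0.66 ± 0.19, adjusted p = 0.112 by limma). Adig, a gene of fat cell formation (0.65 ± 0.15), and Adipoq (0.27 ± 0.09) lay higher in AEA001 without overlap. Retn differed by 0.60 ± 0.26, Car3 by 0.04 ± 0.08 and Cdo1 by 0.01 ± 0.08, with overlapping arrays.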
